A study of Mus musculus with 6 samples.

Results

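Thy1, Vim, Cd34, Mcam, Pdgfra and Pdgfrb encode surface proteins and a cytoskeletal filament used to recognise stromal, perivascular and other mesenchymal cells, and their levels were compared between uteri with and without Indian hedgehog (Ihh). The members were taken as all probe sets of the array whose platform annotation gives exactly 1 gene symbol and that symbol is one of these 6 genes. This gave 6 of 18193 named genes and 11 of 45037 probe sets: 1 each for Thy1, Cd34 and Mcam, 3 for Vim, 3 for Pdgfra and 2 for Pdgfrb. All 11 passed the filter that left out the dimmest 25% of probe sets. The genes were grouped with the difference between these genotypes already known, so that difference is given here as a description of the members and is not tested for them.

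The control mice carried homozygous floxed Ihh alleles (Ihhf/f). The ablated mice carried the same alleles together with 1 copy of a Cre recombinase at the progesterone receptor locus (PRcre/+ Ihhf/f, written Ihhd/d). Effects of Cre alone, of its insertion at that receptor locus and of Ihh loss therefore cannot be told apart. Uterine RNA came from day -1 of an artificially induced decidual response, in which hormones and a stimulus make the stroma differentiate as in pregnancy, with 3 samples per genotype and 1 Affymetrix mouse genome array each. The labels used here give no age or strain, and do not say that samples came from separate mice, so p-values reflect only sample-to-sample spread, which may be technical. A Cre driven from the progesterone receptor locus acts in any uterine cell that expresses that receptor, in epithelium, stroma or muscle. One label field names SmoM2, an activated Smoothened allele, for all samples, in conflict with titles, genotypes and design text, which were followed instead. Values are the deposited linear intensities, and they compare arrays within a probe set, never 1 gene with another. In bulk tissue, fewer cells of a type and less RNA per cell cannot be told apart.

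Ihh is a secreted ligand that the luminal and glandular epithelium of the uterus makes under progesterone, and the stroma beneath receives it through Patched and the Gli factors. THY1 (CD90) is a small glycoprotein held on the outer membrane by a lipid anchor, found on fibroblasts, T cells and neurons. Vimentin is the intermediate filament of mesenchymal cells. CD34 is a sialomucin of vascular endothelium and of many tissue fibroblasts, and MCAM (CD146) is an adhesion molecule of endothelium, pericytes and smooth muscle. PDGFRA and PDGFRB are receptor tyrosine kinases for platelet-derived growth factors, the first typical of fibroblasts and the second of pericytes and fibroblasts.

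Of the 6 genes, 4 have a promoter window in the RefSeq table used here (GRCm38.p6), and Thy1 is not among them. The 250 bases before the start site are shown for Vim, the member that was lower together with Thy1, and for Pdgfra, the fibroblast receptor that was not. The Vim window lies on the plus strand at chr2:13574061-13574310 and the Pdgfra window on the plus strand at chr5:75152001-75152250. Capitals mark TATAAA on the sense strand, and CCAAT or GGGCGG on either strand.
Vim: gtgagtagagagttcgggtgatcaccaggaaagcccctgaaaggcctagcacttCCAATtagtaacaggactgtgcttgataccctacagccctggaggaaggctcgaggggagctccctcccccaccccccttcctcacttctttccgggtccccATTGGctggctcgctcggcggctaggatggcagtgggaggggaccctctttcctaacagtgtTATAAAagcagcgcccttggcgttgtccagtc
Pdgfra: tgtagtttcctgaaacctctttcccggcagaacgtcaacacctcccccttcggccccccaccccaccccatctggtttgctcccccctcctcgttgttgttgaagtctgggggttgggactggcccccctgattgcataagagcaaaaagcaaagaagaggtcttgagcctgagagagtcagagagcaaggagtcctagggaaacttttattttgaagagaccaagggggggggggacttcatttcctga
The Vim window held TATAAA from -32 to -27 and CCAAT at -196 to -192 and, on the opposite strand, at -94 to -90, with position -1 the last base before the start. TATAAA occurred in 7.59% and CCAAT in 33.8% of the 32851 windows of that length in the table. The Pdgfra and Cd34 windows held none of these letters, while the Mcam window held GGGCGG 5 times, a match found at least once in 32.7% of windows. The Gli consensus GACCACCCA was in none of the 4 windows on either strand, nor was TGACTCA, and they occurred in 0.225% and 4.46% of all windows. These matches describe letters only.

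The Hedgehog target Gli1 read 515.2, 386.1 and 355.7 in the 3 control arrays and 76.3, 74.9 and 64.8 in the 3 Ihh-ablated arrays (log2 difference -2.53, SE 0.16, limma adjusted p = 0.000492). Ptch1, which encodes the receptor Patched, fell by 1.65 on the log2 scale (SE 0.14, adjusted p = 0.00146). The Ihh probe set itself averaged 155.5 ± 13.3 over control arrays and 116.7 ± 21.5 over Ihh-ablated ones (SD, n = 3 each), a log2 difference of -0.43 that did not pass (limma adjusted p = 0.164), and where it lies relative to the deleted part is not given in the labels. Hoxa10 and Hoxa11, homeobox genes of the uterus, read between 1345 and 1811 and between 1990 and 2473 over the 6 arrays.

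Control replicate 3 carried skeletal muscle transcripts (summed intensity of 13 marker genes 19783, against 2616 to 6117 in the other arrays). Ihh-ablated replicate 2 carried exocrine pancreas transcripts (12 genes, 102157 against 1306 to 3752). Adipocyte markers, 12 of which were tested and none called, summed to between 4359 and 17559 in control and between 13944 and 32155 in Ihh-ablated arrays, lowest in control replicate 1 and highest in Ihh-ablated replicate 3. Their part in the results below was not tested beyond the fits without those arrays. Array medians were 125.8, 142.5 and 125.8 in control replicates 1, 2 and 3 and 124.6, 123.3 and 121.4 in Ihh-ablated replicates 1, 2 and 3. Control replicate 2 thus had the highest, and each Ihh-ablated median lay below every control one. Small separations downwards, in dim genes above all, may carry this shift, which was not tested beyond the median-centred fit. Over the whole array 724 of 33777 tested probe sets (2.14%) differed at a limma adjusted p under 0.05, 376 lower and 348 higher in Ihh-ablated uteri, and 201 lower and 286 higher when arrays were centred on their medians.

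**Figure D1:**
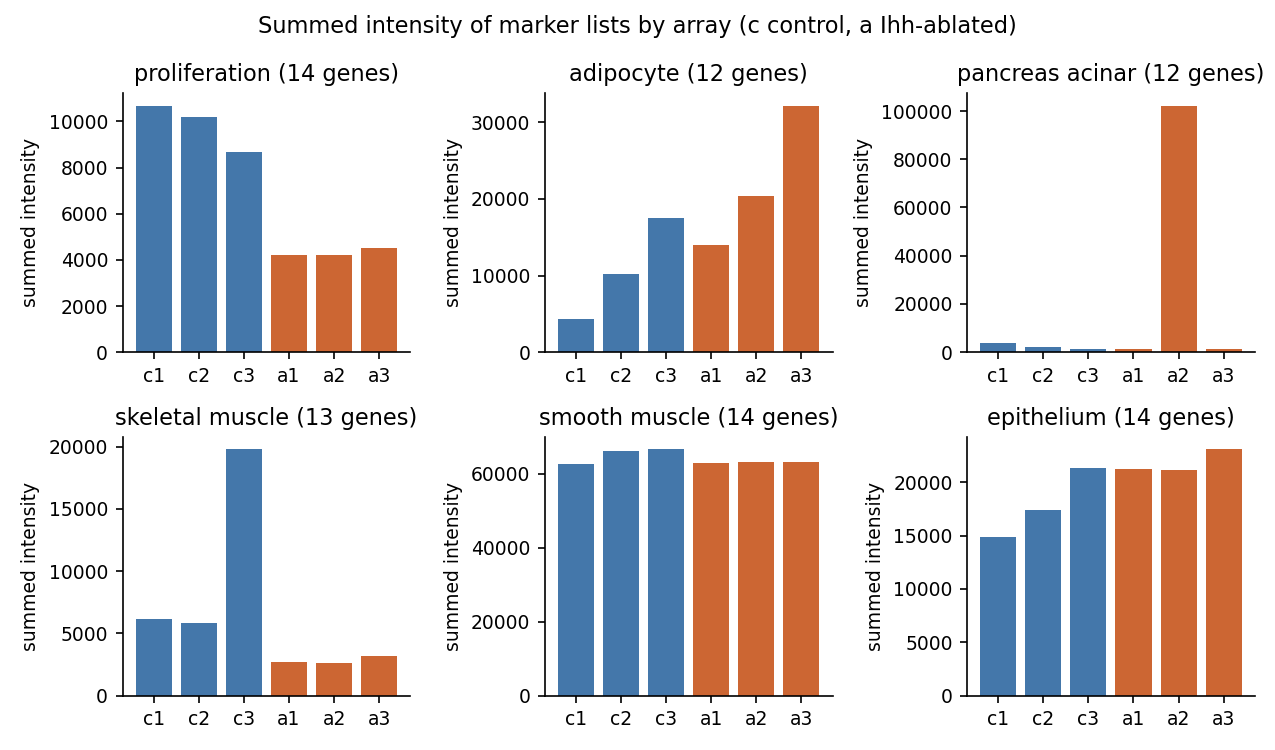
Summed linear intensity of the tested genes of 6 marker lists (vertical axis) in each of the 3 control (c1 to c3) and 3 Ihh-ablated (a1 to a3) arrays (horizontal axis). Skeletal muscle stands out in control replicate 3 at 19783, exocrine pancreas in Ihh-ablated replicate 2 at 102157, adipocyte markers differ between arrays of the same genotype, and the proliferation list is lower in all 3 Ihh-ablated arrays.

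Thy1 was much lower without Ihh. Its probe set 1423135_at read 869.3, 741.7 and 656.6 in control replicates 1, 2 and 3 and 270.5, 263.4 and 296.0 in Ihh-ablated replicates 1, 2 and 3. The lowest control array was thus above the highest Ihh-ablated array, with no overlap. The means were 755.9 ± 107 and 276.6 ± 17.1 (SD, n = 3 each), a 2.72-fold lower level (log2 difference -1.44, SE 0.12). Only 38 of the tested probe sets had a lower log2 difference. Without any 1 array the log2 difference stayed between -1.54 and -1.34, and without both control replicate 3 and Ihh-ablated replicate 2 it was -1.50. The probe set is bright, at the 84.3 percentile of all probe sets, and its Ihh-ablated values remained above the array medians.

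Vim was also lower, by less. The brightest probe set, 1438118_x_at, read 7021, 6534 and 6091 in the controls against 4932, 5073 and 5183 in the Ihh-ablated arrays (1.29-fold lower, log2 difference -0.37, SE 0.06). The suffix _x_at marks probes that may also match other transcripts. A dimmer one, 1450641_at, read 5836, 4933 and 4321 in control against 3202, 3404 and 4152 (log2 difference -0.49, SE 0.12), and the dimmest, 1456292_a_at, read 3612, 2823 and 2466 against 1866, 1971 and 2405 (-0.50, SE 0.14). In each of the 3 Vim probe sets the groups did not overlap, although Ihh-ablated replicate 3 came close to control replicate 3 in both dimmer ones. Control replicate 1 was the highest array and Ihh-ablated replicate 1 the lowest in all 3.

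Cd34 did not follow Thy1. Its probe set 1416072_at read 2209, 1832 and 1723 in the controls against 1554, 1781 and 1765 in the Ihh-ablated arrays, and the groups overlapped (log2 difference -0.17, SE 0.10). The means were 1921 ± 255 and 1700 ± 127 (SD, n = 3 each). Without control replicate 1 the log2 difference was -0.07.

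Mcam did not follow it either. Probe set 1416357_a_at read 1116, 1255 and 1370 in the controls against 1236, 1274 and 1523 in the Ihh-ablated arrays, with overlapping groups (log2 difference 0.11, SE 0.10). Its lowest array was control replicate 1, the array in which Thy1, Vim and Cd34 were highest.

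Pdgfra, the receptor most used to mark fibroblasts, showed no common direction. Its brightest probe set, 1421917_at, read 2729, 1777 and 2028 in the controls against 1815, 2316 and 2072 in the Ihh-ablated arrays, so that the control arrays held both the highest and the lowest value (log2 difference -0.06, SE 0.15). The dimmer 1421916_at read 403.1, 301.3 and 271.0 against 299.9, 371.2 and 325.3 (0.05, SE 0.16). The dimmest, 1438946_at, read 135.9, 115.6 and 113.7 against 135.5, 131.5 and 128.0 (0.12, SE 0.12). The spread among controls, an SD of 22.7% of the mean for the brightest probe set, was larger than the difference between the genotypes in all 3.

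Pdgfrb lay in the opposite direction from Thy1. Probe set 1436970_a_at read 964.5, 952.0 and 844.4 in the controls against 1090, 1064 and 1182 in the Ihh-ablated arrays (log2 difference 0.27, SE 0.08). The other, 1417148_at, read 462.1, 498.2 and 425.0 against 519.4, 501.4 and 597.7 (0.22, SE 0.11). The groups did not overlap in either probe set, by a narrow margin in the second.

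**Figure D2:**
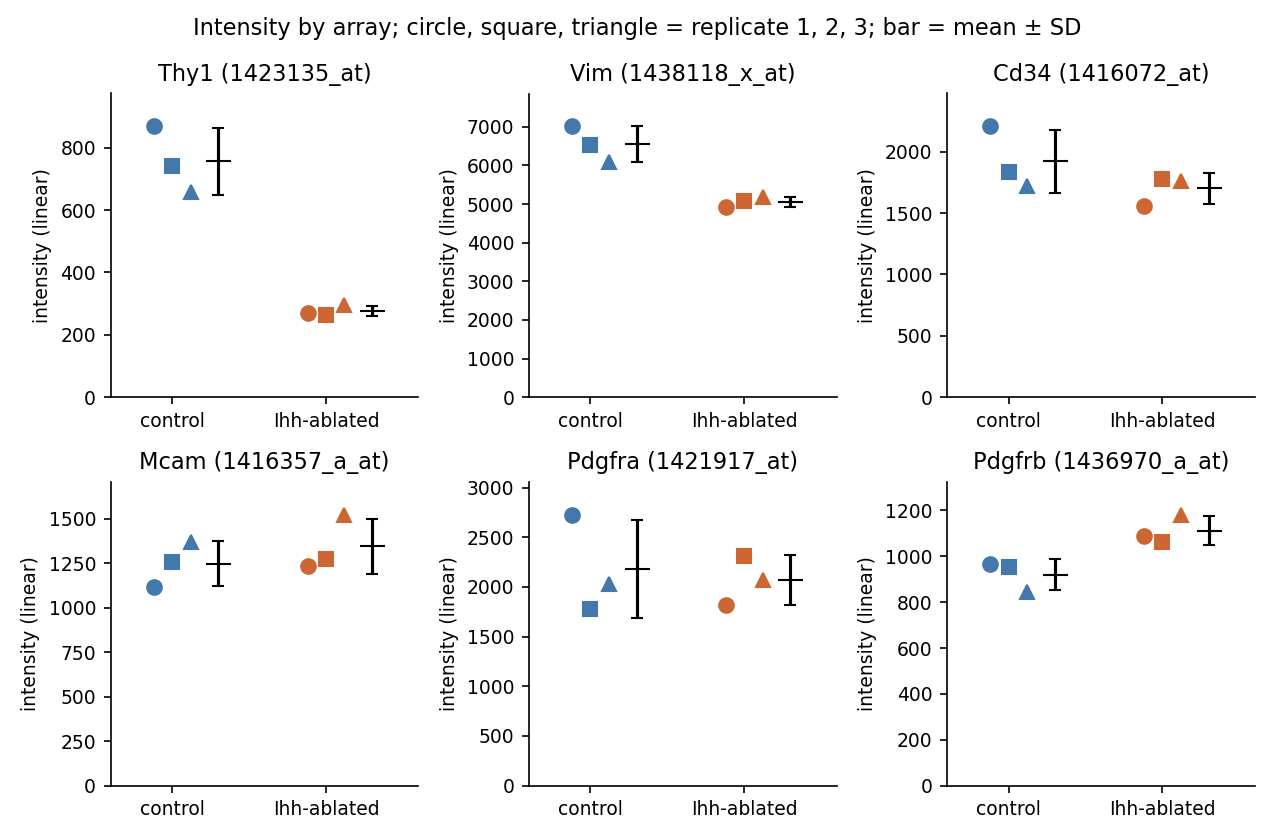
Linear intensity (vertical axis, from 0) of the brightest probe set of each of the 6 genes in control (blue) and Ihh-ablated (orange) arrays, with circle, square and triangle for replicates 1, 2 and 3 and a bar for the mean ± SD of 3 arrays. Thy1 and Vim separate downwards, Pdgfrb separates upwards, and Cd34, Mcam and Pdgfra overlap.

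**Figure D3:**
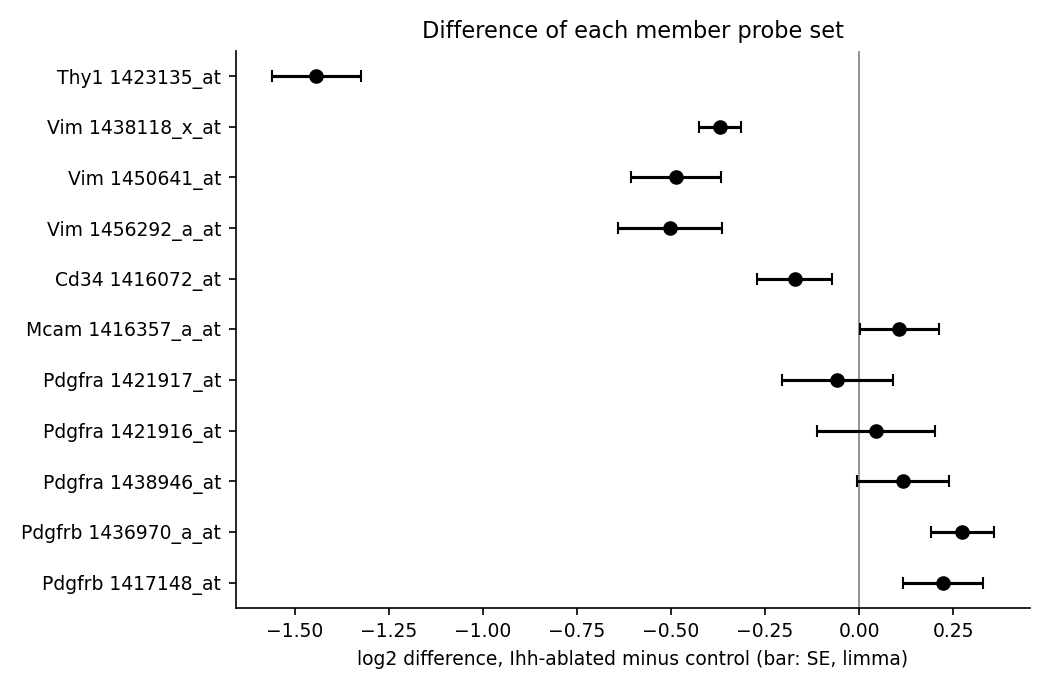
Log2 difference of each of the 11 probe sets, Ihh-ablated minus control (horizontal axis), with its SE from the limma fit as a bar. Thy1 lies at -1.44, the 3 Vim probe sets between -0.50 and -0.37, Cd34, Mcam and Pdgfra between -0.17 and 0.12, and both Pdgfrb probe sets above 0.

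In the fit across all probe sets 2 of the 11 were called lower at an adjusted p under 0.05, Thy1 and the brightest Vim probe set, and none was called higher, by limma. In the same fit 1.11% of all tested probe sets were called lower and 1.03% higher. Groups were separated downwards in 4 members (Thy1 and 3 of Vim), against 17.9% of all tested probe sets, and upwards in 2 (both of Pdgfrb), against 13.1%. Since the genes were grouped with this contrast in view, nothing is read from these counts. The Thy1 call was kept in all 17 other fits. The Vim call was kept in 12 of 17, and among the fits without 1 array it was lost when control replicate 1 or 2, or Ihh-ablated replicate 1, was left out. When control replicate 3 was left out, alone or with Ihh-ablated replicate 2, all 3 Vim probe sets were called, so that the count of members called lower ranged from 1 to 4.

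Within each array, the signal of Thy1 was set against that of every other member, which removes what the array scale shares. The log2 ratio of Thy1 to Vim was -3.01, -3.14 and -3.21 in the controls against -4.19, -4.27 and -4.13 in the Ihh-ablated arrays, a shift of -1.07. Against Cd34 the shift was -1.27, against Pdgfra -1.38, against Mcam -1.55 and against Pdgfrb -1.72, with no overlap of the groups in any of these 5 ratios. Each shift is the log2 difference of Thy1 minus that of the other member. The ratios therefore restate the Thy1 separation and are not separate evidence for it. The Thy1 to Vim ratio was thus lower in each Ihh-ablated array than in any control, and the Vim difference had the same sign and a smaller size.

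Within a genotype some members varied together and others did not. Control replicate 1 was the highest of the 6 arrays in 8 of the 11 member probe sets, against 10.5% of all tested probe sets. These were all 8 probe sets of Thy1, Vim, Cd34 and Pdgfra, and none of Mcam or Pdgfrb. In Thy1 and Vim the genotypes did not overlap, so the highest array had to be a control, and the 10.5% is no like baseline for them. Among the controls alone, replicate 1 was highest in 13 of 16 endometrial stroma genes and 9 of 11 pericyte genes. The share over all tested probe sets, which are not genes, was 22.3%. The same held for 10 of 14 proliferation and 10 of 12 exocrine pancreas genes, so it was not particular to stroma. Lower counts were found for mesenchymal surface (8 of 18) and mesenchymal matrix and transcription factor genes (7 of 19). PDGF pathway (5 of 20), MCAM (2 of 12), filament (1 of 12), THY1 partner (1 of 14) and CD34 family genes (1 of 8) had fewer still. Control replicate 1 also had the lowest epithelial sum (14854, against 17438 and 21309 in the other controls) and the lowest adipocyte sum, and the part of these in the member values was not tested. After each genotype's mean was subtracted, the log2 values of Thy1 and Vim had a Pearson r of 0.95 over the 6 arrays, Thy1 and Pdgfrb 0.88, Thy1 and Cd34 0.82, Thy1 and Pdgfra 0.55 and Thy1 and Mcam -0.34. Mcam had a negative r with each of the other 5 members (-0.42 to -0.05), and Pdgfra with Pdgfrb had 0.16. These coefficients rest on 6 points that share array scale and tissue composition and are given as a description. With the genotype means subtracted, only 4 degrees of freedom remain among the 6 points. The coefficients pool both genotypes and use the brightest probe set of each gene. Over the 6 arrays without that subtraction Thy1 and Pdgfrb had an r of -0.79, and the dimmer Pdgfrb probe set did not order the controls as Thy1 did (462.1, 498.2 and 425.0).

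The genes whose log2 levels were most like those of Thy1 over the 6 arrays were Birc5 (Pearson r 0.999), which encodes survivin, Rrm2 (0.998), a subunit of ribonucleotide reductase, Nek2 (0.998), a centrosomal kinase, Rpa1 (0.998), a subunit of the single-strand DNA binding complex, and Cdc6 (0.997), a replication licensing factor. They were the highest of 15529 ranked genes. Birc5 read 528.1, 434.2 and 361.7 in the controls against 134.7, 139.0 and 156.1 in the Ihh-ablated arrays, the same order of control arrays as Thy1. With the genotype means subtracted these 5 genes had an r with Thy1 of 0.93 to 0.99. Without the 2 arrays farthest from the Thy1 median, control replicates 1 and 2, their r was 0.994 to 0.998. Control replicate 3 is then the only control, so for genes that fall with Thy1 that r mostly restates the genotype difference. Vim ranked 68 (r 0.986), Cd34 3172 (0.67), Pdgfra 7375 (0.23), Mcam 11088 (-0.44) and Pdgfrb 14065 (-0.79). Without control replicates 1 and 2 the r of Cd34 was 0.15, again with control replicate 3 as the only control. The 5 genes were picked as the extreme of a ranking over 6 arrays in 2 groups that Thy1 separates, so their r is a description.

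**Figure D4:**
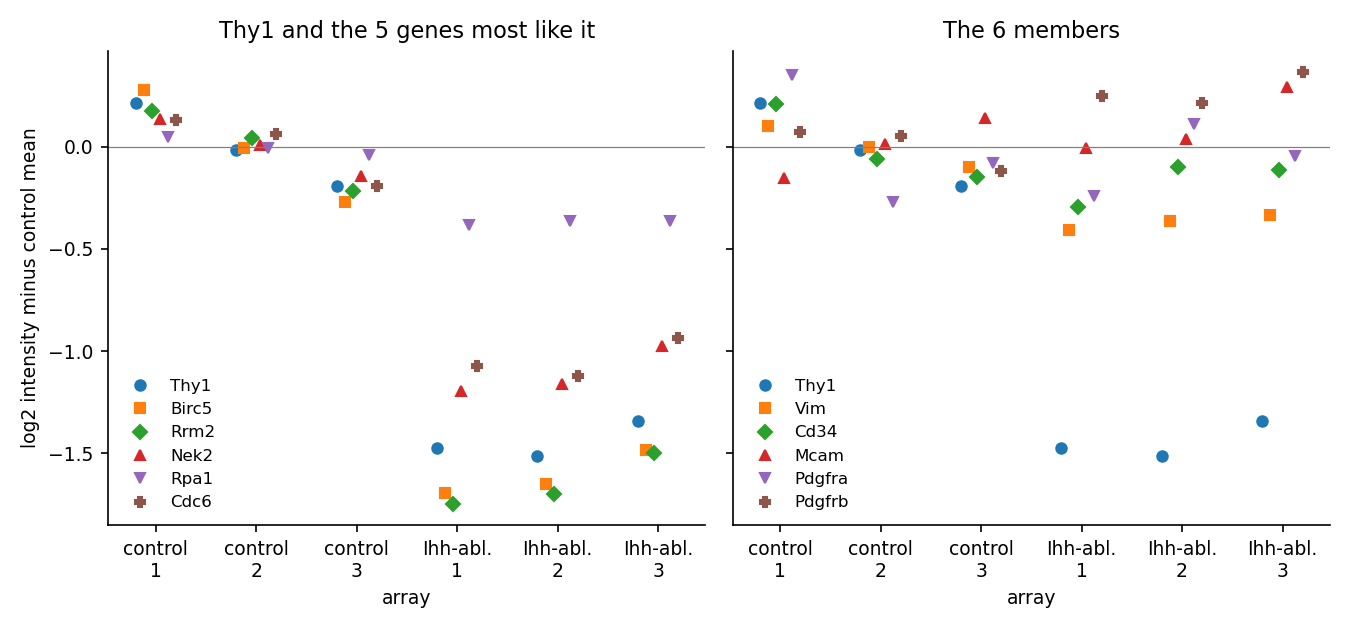
Log2 intensity minus the mean of the 3 control arrays (vertical axis) for each of the 6 arrays (horizontal axis). Left, Thy1 with Birc5, Rrm2, Nek2, Rpa1 and Cdc6, and right, the brightest probe set of each member. On the left all 6 genes drop in the Ihh-ablated arrays and order the control arrays alike, and on the right Thy1 drops to between -1.51 and -1.34 while the others stay within 0.41 of 0.

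The proliferation list, whose Rrm2 is one of those 5 genes, was lower in Ihh-ablated uteri: 13 of 14 tested genes fell by limma, none rose, and the median log2 difference was -1.47, beside -0.04 over all genes tested, of which 1.53% fell. Its summed intensity lay between 8674 and 10675 in control and between 4209 and 4535 in Ihh-ablated arrays. Mki67, the proliferation antigen, differed by -1.84 (adjusted p = 0.00139).

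Companion genes were counted in 8 lists of 119 tested genes in all, chosen by function or cell type with earlier results of these data known. Of the 119 genes 4 fell and 8 rose by limma (3.36% and 6.72%), beside 1.53% and 1.28% (2.81% in all) of the 15530 genes tested. The endometrial stroma list showed no common direction: of its 16 genes 2 rose, none fell and the other 14 missed the threshold. The median log2 difference was 0.08, against -0.04 over all genes. Groups were separated downwards in 2 of the 16, Hand2 and Nr2f2 (-0.24, adjusted p = 0.138 for Nr2f2), and upwards in 4. Over all tested probe sets these shares were 17.9% and 13.1%. Rspo1, a secreted enhancer of WNT signalling, read 279.6, 214.6 and 270.2 in the controls against 404.7, 405.8 and 438.4 in the Ihh-ablated arrays (0.72, SE 0.12, adjusted p = 0.0227). Dcn, the collagen-binding proteoglycan decorin, rose by 0.24 (adjusted p = 0.0488), while its other probe set was at 0.02 (0.951). Hand2, a progesterone-dependent stromal transcription factor, was at -0.43 (adjusted p = 0.0514), and Rspo3 at 0.49 (0.0728). The summed intensity of the 16 genes was 35558 to 38570 in controls and 38985 to 40106 in Ihh-ablated arrays, which did not overlap.

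Among 18 other mesenchymal surface genes 1 fell, 1 rose and 16 did not pass (median -0.07). Cd44, the hyaluronan receptor, read 1292, 1190 and 1160 in the controls against 731.9, 740.8 and 731.3 in the Ihh-ablated arrays, a fall of all 3 Ihh-ablated arrays to nearly the same level (log2 difference -0.72, SE 0.08, adjusted p = 0.00285). Its call was kept without any 1 array. A second Cd44 probe set was also called (-0.75, adjusted p = 0.00623) and another was at -0.17 (0.460). Ngfr, the low-affinity neurotrophin receptor, rose by 0.67 (SE 0.10, adjusted p = 0.0120), a second probe set rose by 0.81 (0.0177), and another was at 0.10 (0.747). Cd248 (endosialin), a fibroblast and pericyte surface protein, was at -0.39 (0.101), Fap, the fibroblast activation protein, at -0.69 (0.147) and Dpp4 at 0.50 (0.103).

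Mesenchymal matrix and transcription factor genes had 1 fall and no rise in 19 (median -0.07). Their summed intensity was 55553 to 56982 in controls and 52909 to 54765 in Ihh-ablated arrays, lower without overlap. This sum is led by the brightest genes and is not a fall of the whole list. Of the 19 genes 5 were separated downwards and 3 upwards, against 17.9% and 13.1% of all tested probe sets. Twist2, a helix-loop-helix factor of mesenchyme, read 846.9, 789.7 and 674.1 in the controls against 466.8, 474.0 and 467.8 in the Ihh-ablated arrays (-0.71, SE 0.10, adjusted p = 0.0114). Snai1, a repressor of epithelial genes, was at -0.75 (0.0606), and Twist1, the close relative of Twist2, at 0.31 (0.197). The bulk fibroblast collagens Col1a1, Col1a2 and Col3a1 differed by -0.15, -0.01 and -0.10, and none passed.

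The PDGF pathway had 3 rises and no fall in 20 genes (median 0.16), with sums of 14168 to 14498 and 15408 to 16941, higher without overlap. Plat, the tissue plasminogen activator, which can activate PDGF-C, read 1029, 1057 and 1158 in the controls against 1788, 1596 and 1508 in the Ihh-ablated arrays (0.59, SE 0.09, adjusted p = 0.0117). A second Plat probe set was at 0.02 (0.956). Pik3r1, a regulatory subunit of PI 3-kinase, rose by 0.39 (0.0209), and Lrp1, an endocytic receptor that binds PDGFRB, by 0.39 (0.0495). A second Lrp1 probe set was at 0.24 (0.473), and of 3 other Pik3r1 probe sets 1 also rose, by 0.43 (0.0403), while the others were at 0.38 (0.181) and 0.17 (0.477). None of the ligands passed: Pdgfa was at 0.16 (0.259), Pdgfb at 0.15 (0.419), Pdgfc at -0.12 (0.503) and Pdgfd at -0.26 (0.289).

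Binding and signalling partners of THY1 had 1 rise and no fall in 14 genes (median 0.06), with sums of 9414 to 9475 and 9732 to 10244, higher without overlap. Itgb5, the integrin beta 5 chain, read 613.3, 670.4 and 732.7 in the controls against 958.9, 983.3 and 1153 in the Ihh-ablated arrays (0.62, SE 0.10, adjusted p = 0.0191), and its 3 other probe sets also rose, by 0.67 to 0.70 (0.0137 to 0.0242). Itgav, the alpha chain that pairs with it, was at 0.18 (0.223), and Adgre5 (CD97), an adhesion receptor, at 0.27 (0.159). The CD34 family and selectins had no call in 8 genes (median -0.10), and the sialomucin Podxl was nearest, at 0.28 (limma adjusted p = 0.0876).

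Among 12 genes tied to MCAM 1 fell and 1 rose (median 0.06), with sums of 21995 to 22813 and 20941 to 21493, lower without overlap. The sums of the mesenchymal surface, CD34 family and filament lists overlapped. Sums are led by the brightest genes of a list. That of the MCAM list is led by Lgals1, the only 1 of its 12 genes separated downwards, while 4 were separated upwards. Over all tested probe sets these shares were 17.9% and 13.1%. With Lgals1 left out, the MCAM sum was instead higher in each Ihh-ablated array than in any control, by a narrow margin. Lgals1, galectin-1, read 10388, 9918 and 9876 in the controls against 7967, 8259 and 7767 in the Ihh-ablated arrays (-0.33, SE 0.04, adjusted p = 0.00538). The call held in every fit without 1 array, and was lost with median-centred arrays (0.129) and without an intensity trend (0.122). Ror2, a receptor for WNT5A, rose by 0.96 (0.0375), with a second probe set at 0.82 (0.0586), and Wnt5a was at 0.35 (0.121). Intermediate filament and lamin genes had 1 fall and no rise in 12 (median -0.24). Groups were separated downwards in 7 of the 12 and upwards in 2, against 17.9% and 13.1% of all tested probe sets. Lmnb1, lamin B1, fell by 0.65 on the log2 scale (0.0361) and by 0.76 in a second probe set (0.0196). Nearest the threshold were Lmnb2 at -0.48 (0.0734) and Dsp at 0.67 (0.0793). The vimentin relative Des was at -0.06 (0.634) and Nes at -0.24 (0.198).

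Of these 12 called companions, Cd44 and Lgals1 alone kept their calls in every fit without 1 array. Dcn, Lrp1, Pik3r1 and Lmnb1 kept theirs only without control replicate 3, with adjusted p up to 0.170, 0.163, 0.115 and 0.162. Without control replicate 1 the calls of Rspo1 (0.0602), Ngfr (0.0666), Twist2 (0.0568), Plat (0.0644), Itgb5 (0.0859) and Ror2 (0.142) were lost, and without Ihh-ablated replicate 1 those of Rspo1 (0.0932), Ngfr (0.0626), Twist2 (0.0595), Plat (0.0593), Itgb5 (0.0607) and Ror2 (0.126). Plat (0.0519), Itgb5 (0.0676) and Ror2 (0.108) also lost theirs without control replicate 2, Rspo1 (0.0652) and Ror2 (0.0673) without Ihh-ablated replicate 2, and Rspo1 (0.106) and Itgb5 (0.0709) without Ihh-ablated replicate 3. With median-centred arrays the calls of Dcn (0.0840), Lrp1 (0.0673) and Lmnb1 (0.0539) were lost, as were those of the cell type markers Cdh5 (0.0838) and Gap43 (0.0649) described next. Quantile normalization cost the calls of Dcn (0.0997), Lrp1 (0.0753), Ror2 (0.0586) and Gap43 (0.0692). With no filter on dim probe sets those of Dcn (0.0724), Lrp1 (0.0715), Ror2 (0.0625) and Lmnb1 (0.0520) were lost. Without an intensity trend the calls of Dcn (0.196), Lrp1 (0.116), Pik3r1 (0.0930), Ror2 (0.0782), Itgb5 (0.0574), Lmnb1 (0.0503) and Cdh5 (0.0742) were lost. With the mean of a gene's probe sets those of Dcn (0.316), Lrp1 (0.179), Plat (0.111), Pik3r1 (0.0926) and Ngfr (0.0680) were lost.

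**Figure D5:**
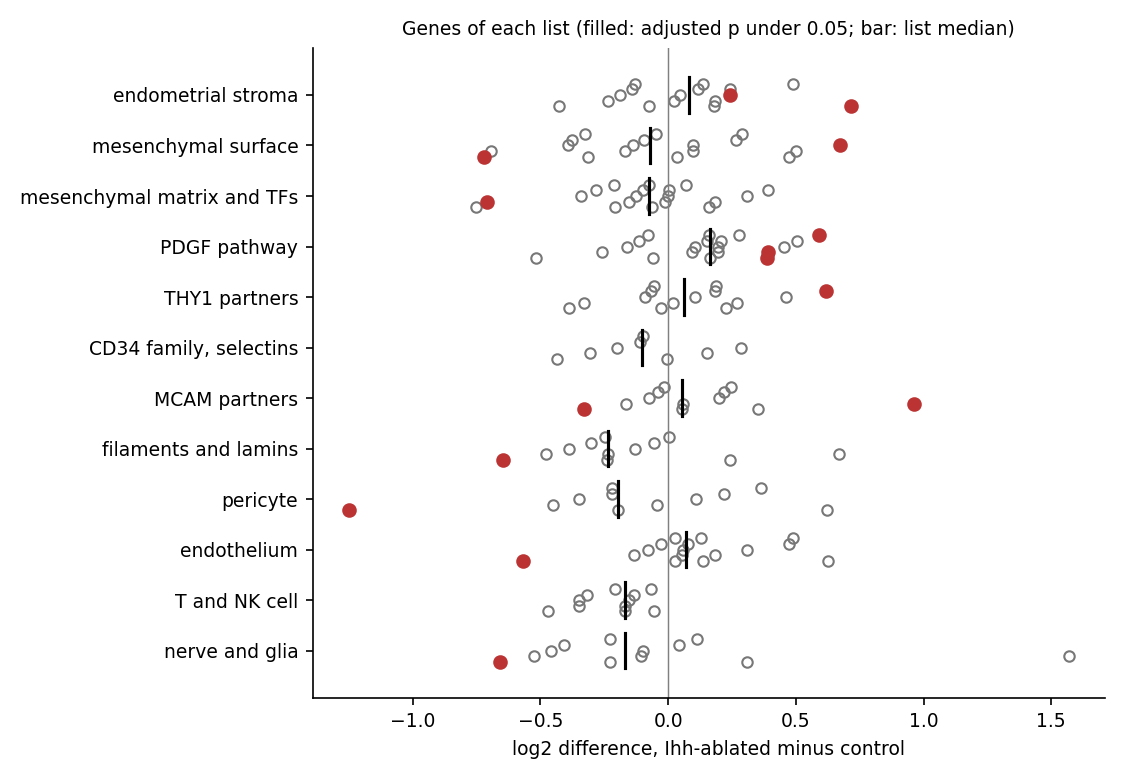
Log2 difference, Ihh-ablated minus control (horizontal axis), of every tested gene of 8 companion lists and 4 cell type lists (vertical axis), filled where the limma adjusted p is under 0.05, with a bar at each list's median. Most genes are open points on both sides of 0, and list medians lie between -0.24 and 0.16.

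Other cell types carry some of these proteins, and their markers were counted beside the members. T cells carry THY1: of 18 listed T and NK cell genes 16 are on the array and 11 were tested, none passed, and the median was -0.17. The defining T cell genes Cd3d and Cd3g lay below the filter, reading 59.1 to 77.8 and 51.4 to 81.7 over the 6 arrays, and Cd3e read 78.2 to 105.4 over the 6 arrays, below the median of every array. The summed intensity of the 11 genes was 1643 to 2215 in controls and 1490 to 1615 in Ihh-ablated arrays, which did not overlap. Neurons also carry THY1: of 12 tested nerve and glia genes 1 fell, Gap43, a growth cone protein (-0.66, adjusted p = 0.0271), and none rose (median -0.17). Chga, chromogranin A, was at 1.57 (0.0633) and Tubb3, a neuronal tubulin, at -0.52 (0.0818). Gap43 lost its call without control replicate 1 (0.105) and without any of the 3 Ihh-ablated arrays (0.102 to 0.124). Nefl, Nefm and Snap25 lay below the filter, and the summed intensities of the groups overlapped (1536 to 1850 in control, 1502 to 1777 in Ihh-ablated). The part of either cell type in the Thy1 values was not tested further.

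Endothelium carries CD34 and MCAM, and pericytes carry MCAM and PDGFRB. Of 16 endothelial genes 1 fell, Cdh5, the junction protein VE-cadherin (-0.57, adjusted p = 0.0275), and none rose (median 0.07), while Pecam1, Kdr and Tek were at 0.03, 0.03 and 0.06. Other endothelial genes lay higher without passing: Vwf, von Willebrand factor, at 0.63 (0.0730), Ptprb at 0.47 (0.0933) and Plvap at 0.31 (0.145), each with groups that did not overlap, and Cldn5 at 0.49 (0.203) with groups that did. Cdh5 lost its call when 1 of 4 arrays was left out: control replicate 1 (0.119) or 2 (0.0907), or Ihh-ablated replicate 1 (0.0934) or 2 (0.0743). Of 11 pericyte genes 1 fell and none rose (median -0.20): Steap4, a metalloreductase, read 1093, 770.2 and 615.8 in the controls against 307.7, 338.2 and 370.0 in the Ihh-ablated arrays (-1.25, SE 0.18, adjusted p = 0.0126), a call lost without control replicate 2 (0.0530) or Ihh-ablated replicate 1 (0.0595). Its other probe set was at -0.50 (0.195), and with the mean of both the call was lost (0.0568). Rgs5, a leading pericyte marker, was at -0.05 (0.831) and Cspg4 at -0.35 (0.184). In the other direction Vtn, vitronectin, was at 0.62 (0.0995) and Abcc9, a potassium channel subunit, at 0.37 (0.0956). Groups were separated upwards in these 2 of the 11 pericyte genes and downwards in 5, Steap4 and Cspg4 among them. Over all tested probe sets 13.1% were separated upwards and 17.9% downwards. The summed intensities of both lists overlapped between the genotypes.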

How the data were processed

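Uterine RNA of 3 control and 3 Ihh-ablated samples was hybridised as biotin-labelled cRNA, 1 array per sample, per the labels. The deposited file holds 1 linear intensity for each probe set and array, already processed by the authors. How probes were summarised, background-corrected and normalized is not stated in what was used here, and no detection calls were used, so dim probe sets have no stated background. Control probe sets (64 of 45101) were left out. The platform annotation gave 1 symbol for 34945 probe sets, several for 932 and none for 9160, and 34741 of those with 1 symbol matched RefSeq (GRCm38.p6) by Entrez identifier. A floor of 16 was applied (1821 values) and log2 taken, and the lowest 25% of probe sets by mean log2 (up to 6.16) were dropped, leaving 33777. The 2 genotypes were fitted in limma 3.58.1 under R 4.3.3 (lmFit, then eBayes with trend, with residual and prior degrees of freedom of 4 and 5.25), with Benjamini-Hochberg adjustment over all tested probe sets. The code of the fit was run on simulated arrays with independent noise in each probe set. Those lack the array scale and tissue differences seen here, so nothing is read from that run about the calls. The brightest probe set stood for a gene. Differences are Ihh-ablated minus control; percentiles and lists use the same fit.

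The members and lists were chosen with earlier results of these data known. The rule named all member probe sets, Ihh, Gli1 and Ptch1, every called gene and otherwise up to 4 genes of lowest p of a companion list, defining markers of other cell types, and the 5 genes most correlated with Thy1; other genes were named for their role after their values were seen. Lists for macrophages, epithelium, mesothelium, smooth muscle and Hedgehog genes were also counted. Alternatives changed scaling, floor, filter, variance model, array weights, replicate block, arrays included, threshold and how a gene's probe sets were joined. The number of arrays limits the precision. Plots used Python 3.11.15 and matplotlib 3.10.9.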

Additional observations from a re-analysis of the deposited data

How the results depend on the processing

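The log2 difference of Thy1 kept its sign in all 17 other fits, between -1.54 and -1.34, as did those of Vim, Cd34, Mcam and Pdgfrb, while 2 Pdgfra probe sets changed sign in 3 and 4 fits, where no Pdgfra probe set was called. Members called lower numbered 2, and 1 with median-centred arrays, without an intensity trend and with a fold of at least 1.5; 4 with array weights, at an adjusted p under 0.10 and with control replicate 3 and Ihh-ablated replicate 2 both left out; and 1 to 4 without 1 array. With median-centred arrays the brightest Vim probe set was at -0.28. The count of all probe sets called was 724, and 374 without a trend, 1411 with array weights, 1852 at an adjusted p under 0.10, 1981 without both arrays, and 148 (without control replicate 1) to 3582 (without control replicate 3) without 1 array. With the replicate number as a block 1562 probe sets were called and the members called were 2. Same-numbered samples did not deviate together (r of -0.15, -0.04 and 0.25 for numbers 1, 2 and 3), and control replicate 2 correlated best with Ihh-ablated replicate 1 (0.32), so the numbers were not taken as pairs. Of 840 counts of calls in the lists under an alternative, 677 were within 1.5 times the reported count, 80 smaller and 83 larger. The cause was not tested for any of these.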

Other observations

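Thy1 and Mcam lie on the same chromosome, 9, with 4 protein-coding genes between them in the RefSeq order. Of these, 2 were tested: Usp2, a ubiquitin protease, read 720.0, 743.0 and 721.5 in the controls against 564.4, 546.1 and 656.2 in the Ihh-ablated arrays (log2 difference -0.31, limma adjusted p = 0.116), and Rnf26, a ubiquitin ligase, was at -0.24 (0.183). Neither passed, and the groups of both were separated downwards, as were those of 17.9% of all tested probe sets.

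Markers of further cell types gave few calls by limma. Of 14 epithelial genes 1 rose, the protease inhibitor Spint2 (0.49, adjusted p = 0.0138), with a list median of 0.33, and a summed intensity of 14854 to 21309 in control and 21119 to 23080 in Ihh-ablated arrays. Of 14 smooth muscle genes 2 fell, Hspb6, a small heat shock protein (-0.78, 0.0101), and Actg2, the enteric smooth muscle actin (-0.25, 0.0337), with a median of -0.08. Spint2 lost its call without control replicate 1 (just above the threshold) or 2 (0.0519) or Ihh-ablated replicate 1 (0.0626) or 3 (0.0567), Hspb6 without Ihh-ablated replicate 1 (0.0538), and Actg2 without any array but control replicate 3 (0.0901 to 0.129). Actg2 also lost it with median-centred arrays (0.196), with no filter on dim probe sets (0.0514) and, with Spint2 (0.0780), without an intensity trend (0.178). None of 11 macrophage genes and none of 8 mesothelial genes passed (medians 0.15 and 0.19). Of 11 Hedgehog genes Gli1 and Ptch1 fell and none rose (median -0.19), and Gas1, a Hedgehog co-receptor, was at 0.26 (0.0580). Of 13 skeletal muscle genes 1 fell, Acta1 (-1.73, 0.00208), a call kept without control replicate 3, the array rich in that tissue.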
